A study of Homo sapiens with 6 samples.

Results

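Chromatin accessibility was examined at 9 genes of replication fork protection and homologous recombination, FANCA, FANCD2, FANCI, FANCM, BRCA1, BRCA2, PALB2, BLM and MUS81, out of 19671 protein-coding genes. The genes were chosen by name, and their peaks are those with a midpoint inside the RefSeq gene body or within 1 kb of it. These comprised 162 peaks over all samples, which merged into 35 of 102784 regions. The samples were RKO cells, an established human colon cancer line, treated either with DMSO, the solvent, or with 0.2 µM aphidicolin (APH) for 16 h, with 3 samples each. APH slows replicative DNA polymerases, and the comparison asks whether mild replication stress altered accessibility at genes whose products act on stalled forks. All 6 samples came from this single cell line, grown at low oxygen. The study describes its ATAC-seq replicates as independent experiments, with cells frozen before tagmentation. ATAC-seq measures how readily a transposase cuts DNA, so the values report open chromatin and neither RNA nor protein.

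Replication forks that stall are stabilised and restarted by the products of these genes. FANCM, a DNA translocase, recognises blocked forks and recruits the Fanconi anemia core complex, of which FANCA is a subunit, and the core complex ubiquitinates the FANCD2-FANCI pair. BRCA1, PALB2 and BRCA2 mediate recombination and shield nascent strands from nucleases, whereas the BLM helicase dissolves recombination intermediates and the MUS81 nuclease cleaves them. Several of these proteins are known for their action at common fragile sites, the loci that break when cells are treated with low doses of APH.

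The sequences at the gene starts are shown first because every gene of the list carried its strongest peaks there. RefSeq promoter windows of GRCh38.p14 covered 9 starts of 8 genes, while FANCI had no entry. Windows are printed from 250 bases before to 30 bases after the start, 5′ to 3′ on the gene's strand, and capitals mark letters of the searched motifs on either strand. FANCA and FANCD2 are shown because they were the genes whose values relative to the sample did not overlap between conditions, FANCM because it had the lowest GC content, and both BRCA1 windows because they resemble each other. The windows are, in order, chr16:89816618-89816897 (minus strand), chr3:10026187-10026466 (plus strand), chr14:45135680-45135959 (plus strand), chr17:43125335-43125614 (minus strand) and chr17:43170298-43170577 (minus strand).
FANCA: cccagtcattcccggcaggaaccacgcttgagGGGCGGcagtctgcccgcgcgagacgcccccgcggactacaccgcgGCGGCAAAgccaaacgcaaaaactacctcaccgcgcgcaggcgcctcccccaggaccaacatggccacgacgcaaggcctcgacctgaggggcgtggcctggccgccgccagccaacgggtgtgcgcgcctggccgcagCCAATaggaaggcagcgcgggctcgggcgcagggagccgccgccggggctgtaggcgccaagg
FANCD2: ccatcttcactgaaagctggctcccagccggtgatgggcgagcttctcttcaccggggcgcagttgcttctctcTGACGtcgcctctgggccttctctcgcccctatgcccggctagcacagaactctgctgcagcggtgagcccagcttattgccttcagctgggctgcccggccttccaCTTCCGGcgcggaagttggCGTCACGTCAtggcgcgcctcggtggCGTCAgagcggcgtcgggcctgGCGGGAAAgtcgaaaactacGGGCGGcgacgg
FANCM: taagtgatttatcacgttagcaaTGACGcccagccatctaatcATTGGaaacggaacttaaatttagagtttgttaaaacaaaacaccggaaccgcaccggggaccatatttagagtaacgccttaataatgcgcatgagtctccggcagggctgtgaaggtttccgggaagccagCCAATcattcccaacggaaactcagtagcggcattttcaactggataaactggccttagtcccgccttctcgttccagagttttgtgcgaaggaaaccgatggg
BRCA1 main start: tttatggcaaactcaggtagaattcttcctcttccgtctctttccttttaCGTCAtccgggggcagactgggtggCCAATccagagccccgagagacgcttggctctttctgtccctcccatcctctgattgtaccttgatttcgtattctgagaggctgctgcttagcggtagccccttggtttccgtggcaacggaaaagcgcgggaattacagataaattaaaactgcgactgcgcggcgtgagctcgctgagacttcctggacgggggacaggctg
BRCA1 upstream start: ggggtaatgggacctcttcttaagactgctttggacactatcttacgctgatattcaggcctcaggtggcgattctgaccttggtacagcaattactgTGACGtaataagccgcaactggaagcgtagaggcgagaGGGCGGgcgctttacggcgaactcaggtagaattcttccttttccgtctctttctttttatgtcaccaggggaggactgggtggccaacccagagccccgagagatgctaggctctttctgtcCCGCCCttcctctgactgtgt

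GC content over the 300-base windows ranged from 48.0% at FANCM to 72.3% at FANCA, beside medians of 62.3% for all 22077 promoters and 65.0% for the 14062 promoters at genes with a start peak. The ETS motif CCGGAAG was present in FANCD2, BRCA2, PALB2 and BLM, and in 12.8% of all promoters and 17.7% of those at genes with a start peak. An E2F motif (TTTCCCGC, TTTCGCGC, TTTGCCGC or TTTGGCGC), known from genes active at the onset of S phase, was found in FANCA and FANCD2 and in 4.08% and 5.15% of the same sets. The NF-Y motif CCAAT lay in the windows of FANCA, FANCM, the main BRCA1 start, PALB2, BLM and MUS81, against 34.7% and 35.4%. The TGACG core of the CRE motif was present in FANCD2, FANCM, both BRCA1 windows, BRCA2 and MUS81, against 27.9% and 32.6%, and the FANCD2 window held 4 copies. The Sp1 motif GGGCGG occurred in FANCA, FANCD2, the upstream BRCA1 window, BLM and MUS81 and in 56.3% and 67.0%. The full CRE (TGACGTCA, which contains that core), NRF1 (GCGCATGC) and CHR (TTTGAA) letters matched none of the 9 windows, against 2.25%, 3.71% and 12.5% of all promoters and 2.80%, 4.95% and 10.3% of those at genes with a start peak. These matches describe letters only.

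Starts on the opposite strand within 1 kb accompanied 5 of the 9 genes, against 37.0% of the 11368 genes with a start peak in every sample. BRCA2 faced ZAR1L at 145 bp, PALB2 faced DCTN5 at 156 bp, BLM faced CRTC3-AS1 at 206 bp and FANCD2 faced CIDECP1 at 301 bp. BRCA1 faced NBR2 at 193 bp at its main start and NBR1 at 82 bp at its upstream start. Start values at these genes therefore cannot be assigned to one neighbour alone. Both BRCA1 windows aligned over 133 columns with 118 identical bases (88.7%), with the stretch from −104 to 28 of the upstream window matching −250 to −118 of the main one, counted from 1 at the start and with negative numbers before it. The upstream start lies in the duplicated copy of the BRCA1 5′ end, which also holds the pseudogene BRCA1P1. Because only uniquely mapped reads were kept in the deposited maps, values in these copies are uncertain.

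Peak lists held 64511 to 77194 peaks in the DMSO samples and 70121 to 84510 in the APH samples, with mean values of 78.3 to 85.2 and 69.4 to 73.0. A peak's value is the mean coverage of extended alignments over the peak, not scaled to library size, and depth is unknown. The median start value over 11368 genes was 146, 155 and 159 in DMSO replicates 1, 2 and 3 and 121, 127 and 133 in APH replicates 1, 2 and 3 (two-sided exact permutation test, p = 0.1, the lowest possible with 3 against 3 samples). The median log2 change over those genes was −0.26, so each gene is also given relative to the median start of its sample. Of the colon markers, EPCAM, CDX2 and LGR5 had start peaks in all 6 samples, KRT18 in 5 and KRT20 in 2, whereas CDH1, KRT8, VIL1, CDX1 and MUC2 had none, so that the epithelial label is only partly borne out at this level. Of the markers of other cell types reported here COL1A1 alone had a start peak, in all 6 samples, while PTPRC, CD3E, ALB, MYOD1 and NEUROD1 had none and PECAM1 was not examined.

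All 9 genes had a start peak in every sample, and the APH mean was below the DMSO mean at each, with values 66.5% to 94.9% of DMSO. Over all starts 92.7% of log2 changes were negative. At 7 of 9 genes the lowest DMSO value lay above the highest APH value, against 42.0% of all 11368 starts. None of the 9 passed the test across all starts (limma on log2(value + 1), Benjamini-Hochberg adjusted p under 0.05), against 3.84% of starts called lower, although 7 of 9 had an unadjusted p under 0.05, as did 4567 starts (40.2%) in the lower direction. The median log2 change of the 9 was −0.34, beside −0.26 for all starts. Lower values in a share of the cells and lower values in each cell cannot be told apart in such bulk samples.

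**Figure D1:**
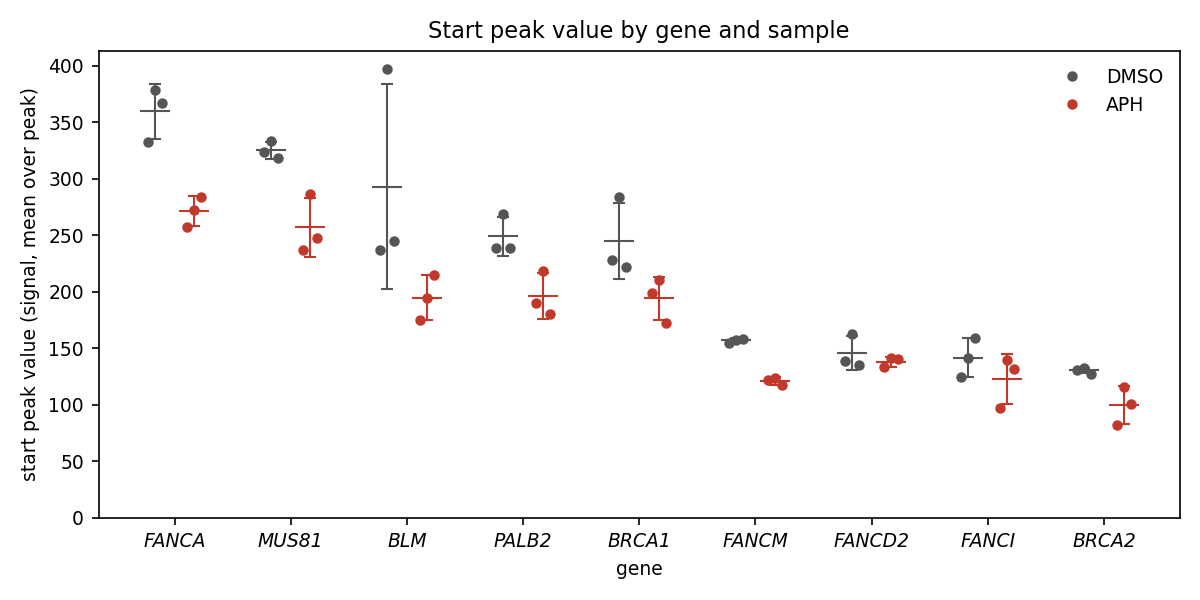
Start peak value (mean coverage over the peak, unscaled) for each gene, with 3 DMSO samples in grey and 3 APH samples in red. Horizontal marks and bars give the mean and SD; FANCD2 and FANCI are the genes whose groups overlap, and FANCA is highest in both conditions.

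Of the genes that detect blocked forks and activate the pathway, FANCM (chr14:45135930-45200890, plus strand) had the tightest values. Its start peak measured 155, 158 and 159 in DMSO replicates 1, 2 and 3 and 122, 124 and 117 in APH replicates 1, 2 and 3. No sample crossed between groups, and the gap between them exceeded the spread within each. The log2 change was −0.37 (SE 0.10, adjusted p = 0.0531).

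FANCA (chr16:89737549-89816647, minus strand), the core complex subunit, had the highest start of the list, at the 94.8th percentile of all starts in DMSO. Values were 332, 379 and 368 in DMSO replicates 1, 2 and 3 and 257, 273 and 284 in APH replicates 1, 2 and 3. Both groups stood apart, with a log2 change of −0.40 (SE 0.11, adjusted p = 0.0525). The adjusted p was 0.0477 without APH replicate 3, a setting in which 2187 of all starts were called lower, and 0.0653 to 0.213 when any other sample was left out.

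The substrates of the core complex were the genes whose start values overlapped between conditions. FANCD2 (chr3:10026437-10101932, plus strand), the central ubiquitinated protein of the pathway, measured 139, 163 and 135 in DMSO replicates 1, 2 and 3 and 133, 141 and 140.3 in APH replicates 1, 2 and 3. Only DMSO replicate 2 exceeded all APH samples, and the groups overlapped (log2 change −0.07, SE 0.11, adjusted p = 0.621). Without DMSO replicate 2 the log2 change was 0.01.

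FANCI (chr15:89243979-89317259, plus strand), the partner of FANCD2, measured 124, 142 and 159 in DMSO replicates 1, 2 and 3 and 97.5, 139.5 and 132 in APH replicates 1, 2 and 3. APH replicate 1 was lowest and the groups overlapped (log2 change −0.22, SE 0.15, adjusted p = 0.280). The shape of the start differed between samples. A single peak of 1119, 987 and 770 bp was called in DMSO replicates 1, 2 and 3 and one of 712 bp in APH replicate 2, while APH replicates 1 and 3 each had a main peak of 657 and 672 bp and a separate small one of value 38.8 and 52.1. The main peaks of APH replicates 1 and 3 alone measured 121 and 166, just below and just above the range of the other 4 samples, and the averages given for them include the small peaks. The FANCI log2 change was −0.0015 with the highest start peak or a window of 500 bp, −0.06 without APH replicate 1, −0.13 without DMSO replicate 3 and −0.36 with signal summed over the start.

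Among the recombination mediators, BRCA2 (chr13:32315077-32400268, plus strand), a large mediator of strand exchange, had the lowest start of the list in both conditions. It measured 131, 133 and 128 in DMSO replicates 1, 2 and 3 and 82.1, 116 and 101 in APH replicates 1, 2 and 3. The DMSO samples lay within 5 units of each other and above every APH sample (log2 change −0.40, SE 0.14, adjusted p = 0.0719). PALB2 (chr16:23603165-23641310, minus strand), which bridges BRCA1 and BRCA2, measured 239, 269 and 239 in DMSO replicates 1, 2 and 3 and 190.3, 219 and 180.2 in APH replicates 1, 2 and 3. Its groups were also apart, with a log2 change of −0.34 (SE 0.11, adjusted p = 0.0666).

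BRCA1 (chr17:43044295-43170327, minus strand), a ubiquitin ligase that promotes end resection, had 4 start regions spread over both RefSeq starts. Averaged over all of them by length, it measured 228, 284 and 222 in DMSO replicates 1, 2 and 3 and 199, 210.5 and 173 in APH replicates 1, 2 and 3, and the groups were apart (log2 change −0.33, SE 0.13, adjusted p = 0.0876). Without DMSO replicate 2 the log2 change was −0.22 (adjusted p = 0.190, limma). At the main start (position 43125364, beside NBR2) values were 202, 305 and 195 in DMSO replicates 1, 2 and 3. In APH replicates 1, 2 and 3 they were 154, 192 and 139, with no overlap of these averages. The region chr17:43125151-43125732 there was also separated, whereas chr17:43124402-43125016 overlapped. The latter measured 107, 145 and 102 in DMSO replicates 1, 2 and 3 and 74.5, 111 and 78.4 in APH replicates 1, 2 and 3. At the upstream start (position 43170327, beside NBR1) values were 248, 269 and 243 in DMSO replicates 1, 2 and 3. In APH replicates 1, 2 and 3 they were 251, 224 and 205, and APH replicate 1 lay inside the DMSO range. Each region at the upstream start overlapped as well. The difference between the starts was not tested.

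Among the enzymes that process recombination intermediates, BLM (chr15:90717346-90816166, plus strand), a RecQ helicase, had the largest spread in DMSO. It measured 237, 398 and 245 in DMSO replicates 1, 2 and 3 and 175, 195 and 215 in APH replicates 1, 2 and 3. The groups were apart (log2 change −0.55, SE 0.18, adjusted p = 0.0655), and DMSO replicate 2 stood far above the other samples. In that sample the peak was 645 bp wide, against 1017 and 996 bp in the other DMSO samples. Whether this width bears on its value was not tested. The log2 change was −0.31 without DMSO replicate 2. The adjusted p was 0.0472 without APH replicate 3 and 0.0676 to 0.234 when any other sample was left out. MUS81 (chr11:65859674-65867653, plus strand), the nuclease, had a pair of start regions and measured 324, 333 and 319 in DMSO replicates 1, 2 and 3 and 237, 287 and 247 in APH replicates 1, 2 and 3. Again the groups were apart (log2 change −0.34, SE 0.11, adjusted p = 0.0666), and this held for each region separately.

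The starts fell into a high and a low set. In DMSO the order by mean value was FANCA (359.7 ± 24.3, SD, n = 3), MUS81 (325 ± 7.43), BLM (293 ± 90.7), PALB2 (249 ± 17.4), BRCA1 (245 ± 33.9), FANCM (157 ± 1.87), FANCD2 (146 ± 14.9), FANCI (142 ± 17.3) and BRCA2 (130.5 ± 2.53). The ranges of neighbours overlapped everywhere except between BRCA1 and FANCM. In APH the same genes made up the high set, and neighbours were apart between MUS81 and PALB2, between BRCA1 and FANCD2, and between FANCM and BRCA2. FANCM, which ranked above FANCD2 and FANCI in DMSO, ranked below both in APH, with overlapping ranges next to FANCI.

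**Figure D2:**
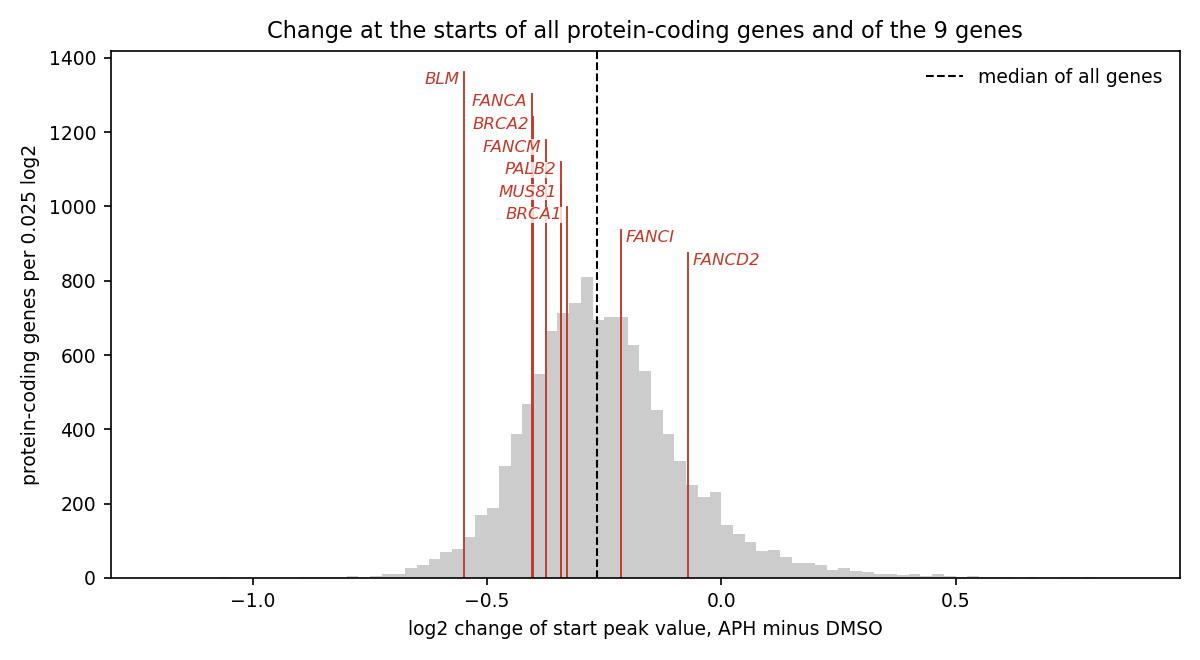
Histogram of the log2 change of start peak value (APH minus DMSO) over 11368 protein-coding genes, with the 9 genes as red lines and the median of all genes, −0.26, as a dashed line. FANCI and FANCD2 lie right of the median and the other genes left of it, BLM farthest at −0.55.

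Relative to the median start of the sample, 7 of 9 genes overlapped between conditions. FANCA stood at 1.19, 1.29 and 1.21 on the log2 scale in DMSO replicates 1, 2 and 3 and at 1.09, 1.10 and 1.09 in APH replicates 1, 2 and 3. It was lower in every APH sample, by 0.13 on average (two-sided exact permutation test, p = 0.1), and such separation downward was seen at 6.18% of all starts. FANCD2 went the other way, with −0.07, 0.07 and −0.24 in DMSO replicates 1, 2 and 3 and 0.14, 0.15 and 0.08 in APH replicates 1, 2 and 3. It was higher in every APH sample, by 0.20 on average (two-sided exact permutation test, p = 0.1), against 8.55% of all starts separated upward, and the gap between DMSO replicate 2 and APH replicate 3 was narrow. On leaving out 1 sample it ran from 0.12 (without DMSO replicate 3) to 0.27 (without DMSO replicate 2), and with summed signal it was 0.06. In the test across all starts after median centring, the adjusted p was 0.771 for FANCA and 0.680 for FANCD2.

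The remaining relative differences were −0.11 for FANCM, −0.06 for BRCA1, −0.13 for BRCA2, −0.07 for PALB2, −0.28 for BLM, −0.07 for MUS81 and 0.05 for FANCI, with exact p between 0.2 and 0.8. With summed signal FANCM, BRCA2, PALB2, BLM and MUS81 turned positive (0.029 to 0.086) and FANCI negative (−0.026). BRCA1 was positive without DMSO replicate 2 (0.04) or APH replicate 3 (0.06), PALB2 was positive without APH replicate 3 (0.02), and FANCI was negative without APH replicate 2 (−0.04). Without APH replicate 3 the difference was −0.05 for FANCM and −0.01 for MUS81, while MUS81 was at −0.15 without APH replicate 2 and at −0.11 without DMSO replicate 3. Relative to the mean of all peaks in place of the median start, FANCM was at −0.17 with its groups apart (exact permutation, p = 0.1), BRCA1 at −0.12, PALB2 and MUS81 at −0.14 each and FANCI at −0.01. BRCA2 was at −0.04 without APH replicate 1 and at −0.25 without APH replicate 2, where its groups were apart (exact permutation, p = 0.1). The share of all starts separated in the settings where FANCM and BRCA2 were apart is not given. For BLM the difference rested on DMSO replicate 2, at 1.36 beside 0.70 and 0.62 in the other DMSO samples and 0.53 to 0.69 in APH. Without DMSO replicate 2 it was −0.05. The design allows no p below 0.1, so none of these comparisons could pass 0.05.

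**Figure D3:**
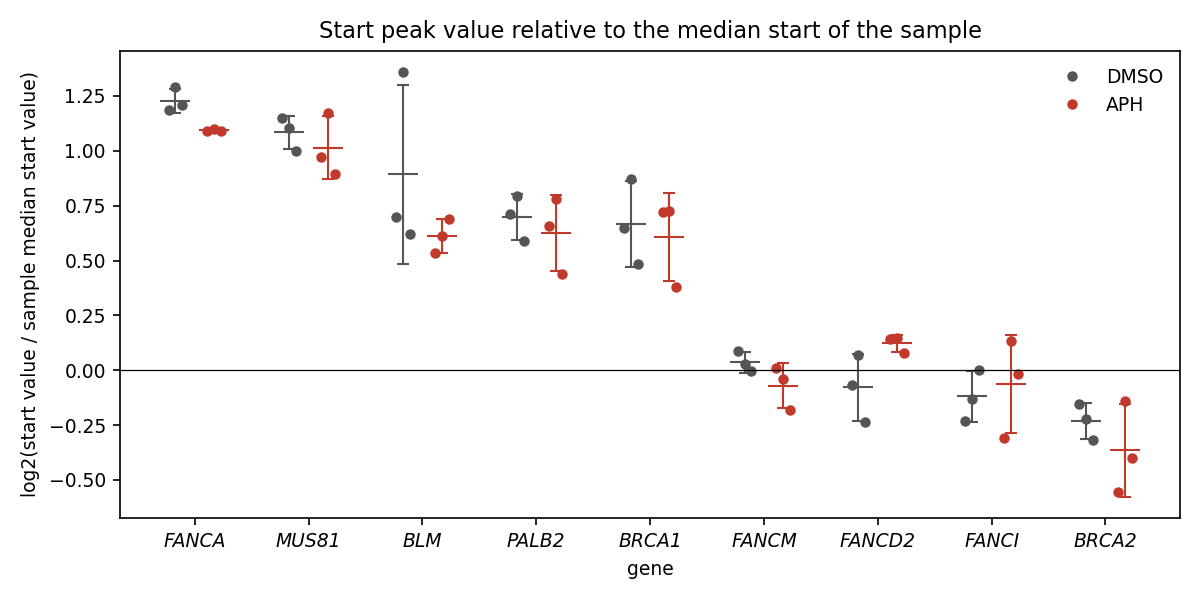
Log2 of the start value over the sample's median start value, per gene and sample (DMSO grey, APH red, mean and SD as marks and bars), with 0 meaning the median start. FANCA is lower and FANCD2 higher in all 3 APH samples, and the other genes overlap.

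A mean over a peak depends on where the peak was cut, so the signal was also summed over the start peaks as value times length in kb. By this measure FANCA, BRCA1, BLM and MUS81 fell in APH, with adjusted p of 0.0268, 0.0393, 0.0332 and 0.0427 (limma), against 27.2% of all starts called lower. Log2 changes were −0.47 for FANCA, −0.34 for BRCA1, −0.30 for BLM and −0.25 for MUS81, beside a median of −0.32 over all starts and −0.30 over the 9 genes, so that BLM and MUS81 changed by less than the median start. The summed BLM signal was 241, 256 and 244 in DMSO replicates 1, 2 and 3 and 188, 209 and 203 in APH replicates 1, 2 and 3. DMSO replicate 2 no longer stood out, and the groups remained apart. FANCD2 measured 97.2, 116 and 110.3 in DMSO replicates 1, 2 and 3 and 97.2, 88.1 and 82.5 in APH replicates 1, 2 and 3 by this sum. APH replicate 1 reached the lowest DMSO sample and the others lay below (log2 change −0.27, SE 0.14, adjusted p = 0.143), while the covered length was 743 ± 63.8 bp in DMSO and 647 ± 73.8 bp in APH (SD, n = 3 each), with overlapping ranges.

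**Figure D4:**
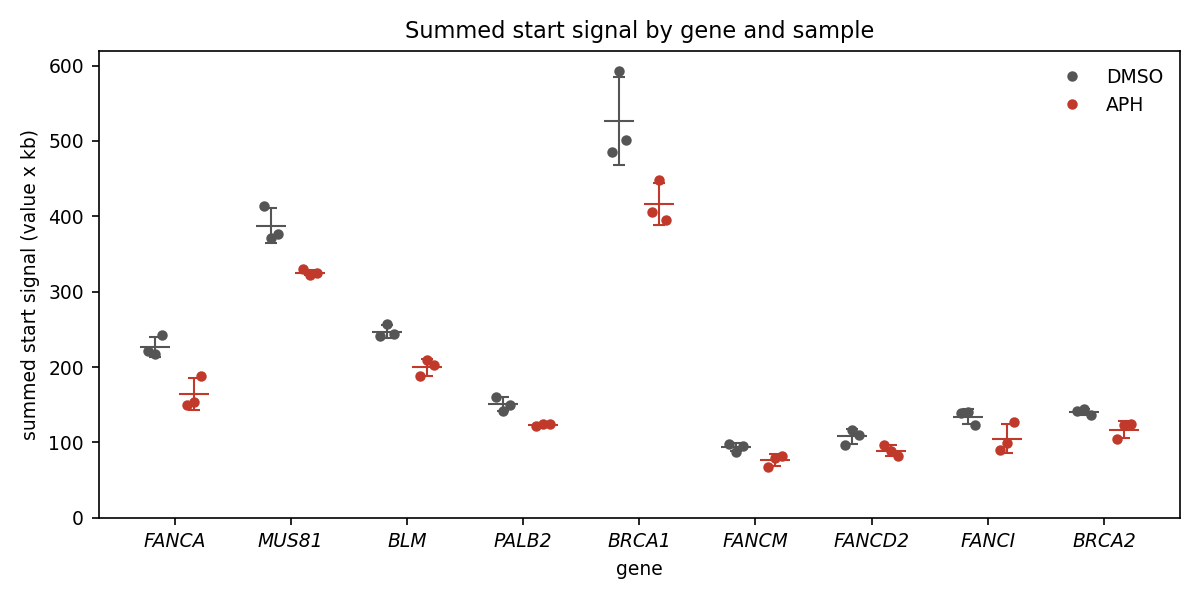
Start signal summed over the peaks (value times kb) per gene and sample, DMSO in grey and APH in red, with mean and SD. Groups are apart for all genes except FANCD2 and FANCI, and the 3 DMSO samples of BLM lie between 241 and 256. The share of all starts separated by this sum is not given, while limma called 27.2% of them lower. Levels of different genes are not comparable here because the covered lengths differ.

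In the gene bodies and the 1 kb around them, every peak away from the starts had a lower value than the highest start peak of the same gene in its sample. Over the 9 genes together, 11, 17 and 11 body peaks were called in DMSO replicates 1, 2 and 3 and 15, 17 and 11 in APH replicates 1, 2 and 3. The totals overlapped, and each condition's replicate 2 had the most. The number of body peaks overlapped between conditions at all 9 genes, against 3.51% of 13234 genes with separated numbers. FANCA had the most over the 6 samples together, although its DMSO mean equalled that of FANCI, with 2, 4 and 4 in DMSO replicates 1, 2 and 3 and 5, 6 and 4 in APH replicates 1, 2 and 3 (difference 1.67, two-sided exact permutation test, p = 0.3). The difference was 1 without DMSO replicate 1 (exact p = 0.4) and 1.17 without APH replicate 2 (exact p = 0.6), while without APH replicate 3 it was 2.17 and the groups no longer overlapped (exact p = 0.1).

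FANCI had 3, 5 and 2 body peaks in DMSO replicates 1, 2 and 3 and 4, 4 and 2 in APH replicates 1, 2 and 3, with equal means. The equality depended on the setting, since the difference was 1.33 with a stricter peak threshold, a value of at least 29.8 (exact p = 0.3), and ran from −0.67 without DMSO replicate 3 to 0.83 without DMSO replicate 2. FANCD2 had 2, 2 and 1 against 1, 2 and 0 in the same order, and FANCM 1, 1 and 0 against 1, 1 and 1. BRCA2 had a single body peak in each of the 6 samples, BLM 1 in each except for 2 in APH replicate 2, and MUS81 1 in each except for none in APH replicate 1. PALB2 had a body peak in DMSO replicate 2 and APH replicate 1 alone, and BRCA1 in DMSO replicates 2 and 3 and APH replicates 1 and 3. The MUS81 peak lay past the gene's end, and without the 1 kb flank no body peak was counted there. Per 100 kb the mean number over samples in the other 8 genes ran from 0.529 at BRCA1 to 5.27 at FANCA, beside a median of 2.58 and an upper quartile of 4.38 over 3444 genes between 38.1 and 126 kb long with a start peak in every sample.

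**Figure D5:**
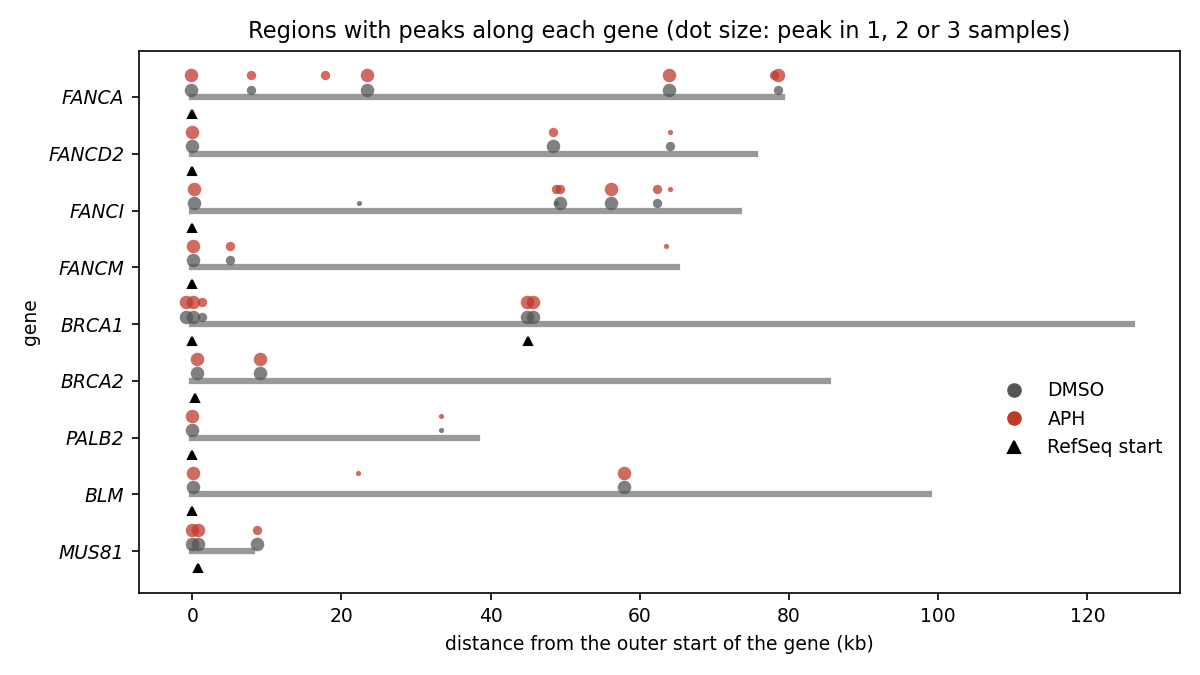
Regions with peaks along each gene, drawn from the outer start at 0 kb in the direction of transcription, with dots for DMSO (grey) and APH (red) sized by the number of samples with a peak and triangles at RefSeq starts. FANCA and FANCI carry most body regions, and BRCA1 has none beyond its main start.

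Of the 35 regions, 13 were start regions, and each had a peak in all 6 samples. The 22 body regions divided into 5 with a peak in all 6 samples, 5 seen in APH samples only, 1 in a DMSO sample only and 11 in some samples of both conditions. Of all 102784 merged regions, 18.5% were seen in APH samples only and 7.03% in DMSO samples only. No body region was present in all 3 samples of one condition and absent from the other. FANCA contributed both regions that were seen in more than 1 APH sample and in no DMSO sample, at chr16:89738537-89738874 near the 3′ end (60.0 and 55.2 in APH replicates 2 and 3) and at chr16:89798769-89799014 (31.7 and 35.4 in APH replicates 1 and 2).

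The shared body regions lay at chr16:89752578-89752975 and chr16:89793083-89793464 in FANCA, chr15:89299894-89300255 in FANCI, chr13:32323957-32324295 in BRCA2 and chr15:90775047-90775516 in BLM. None was separated between conditions, against 18.6% of the 50150 regions found in every sample, and none passed the test over those regions, where limma called 0.00% at an adjusted p under 0.05 (6 samples, 5062 regions lower and 1235 higher at an unadjusted p under 0.05). The BLM region, 57936 bp into the gene, was the strongest of the 5, at 66.5, 93.4 and 55.4 in DMSO replicates 1, 2 and 3 and 72.9, 96.0 and 62.2 in APH replicates 1, 2 and 3. Its groups overlapped almost fully (log2 change 0.11, SE 0.22, adjusted p = 0.884). The FANCI region measured 24.9, 40.5 and 29.4 in DMSO replicates 1, 2 and 3 and 44.8, 49.2 and 34.8 in APH replicates 1, 2 and 3, with a log2 change of 0.45 (SE 0.23, adjusted p = 0.444). On leaving out 1 sample this change ran from 0.29 (without DMSO replicate 1) to 0.63 (without DMSO replicate 2).

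Averaged over the body peaks of each sample, FANCI measured 24.6, 30.5 and 25.1 in DMSO replicates 1, 2 and 3 and 34.9, 36.0 and 31.8 in APH replicates 1, 2 and 3. Every APH sample was higher, while the groups overlapped at the start of the gene. Upward separation of this kind was seen at 2.73% of 9752 genes with a body peak in every sample. The FANCI difference was 7.48 (two-sided exact permutation test, p = 0.1). These means are over 2 to 5 peaks, and when each list was reduced to its 64511 strongest peaks the difference was 8.22 but the groups overlapped. FANCA, BRCA2 and BLM, the other genes with a body peak in every sample, overlapped between conditions. The strongest body peaks of the list were those of BRCA1 at chr17:43168931-43169166. They measured 137 and 114 in DMSO replicates 2 and 3 and 121 and 111 in APH replicates 1 and 3. They lay 1281 bp inside the upstream start, and so upstream of the main start at position 43125364. Values at the upstream start were called uncertain above. The strongest body regions of the other genes were, by the highest value in any sample, chr16:89793083-89793464 in FANCA (80.5 in DMSO replicate 2), although in APH the mean of chr16:89737928-89738339 was higher (63.4 against 58.7), chr3:10074666-10075033 in FANCD2 (21.3 to 34.7 over 5 samples), chr14:45140844-45141117 in FANCM (40.0 to 54.1 over 4 samples), chr16:23607791-23608034 in PALB2 (23.4 and 23.3 in a sample of each condition), chr11:65868142-65868504 in MUS81 (48.2 to 58.8 over 5 samples), just past the gene's end, and the shared regions named above in FANCI, BRCA2 and BLM.

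The pathway beyond the 9 genes was followed in 57 further genes, of which 52 had a start peak in every sample. FAAP20, FAAP100, HLTF and RPA3 were among those that did not. All 52 changes were negative, with a median of −0.31, beside 92.7% and −0.26 over all starts, and 24 of 52 were separated downward, beside 42.0% of all starts. RMI2, a partner of BLM in the dissolvasome, and RAD52, a strand-annealing protein, passed the test on the mean value, that is 2 of 52, beside 3.84% of all starts. With summed signal 20 of 52 were called lower, beside 27.2% of all starts. An unadjusted p under 0.05 was reached by 27 of 52, beside 40.2% of all starts. RMI2 measured 138, 165 and 163 in DMSO replicates 1, 2 and 3 and 92.5, 103 and 116 in APH replicates 1, 2 and 3 (log2 change −0.57, SE 0.13, adjusted p = 0.0478). RAD52 measured 168, 179 and 174 in DMSO replicates 1, 2 and 3 and 131, 131 and 127 in APH replicates 1, 2 and 3 (log2 change −0.42, SE 0.10, adjusted p = 0.0496). Both calls sat at the threshold and were lost when any 1 sample other than APH replicate 3 was left out, with adjusted p between 0.0643 and 0.209, and after median centring, with 0.507 for RMI2 and 0.748 for RAD52. Both were also lost with quantile normalization (0.476 and 0.684), with features present in at least 3 samples (0.0623 each), with a start window of 500 bp (0.0597 and 0.0664) and with the highest start peak alone (0.0669 and 0.0728), and RAD52 also with a pseudocount of 5 or the outermost start. The presence filter left both log2 changes as they were. Both calls were kept with summed signal (0.0300 each), with the stricter peak threshold (0.0470 and 0.0490) and with a start window of 2 kb (0.0465 and 0.0488).

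Relative to the sample, RMI2, RAD52 and FANCB were separated downward and WRN, a RecQ helicase like BLM, and RAD50, a subunit of the MRE11 complex, upward, that is 3 and 2 of 52 genes, beside 6.18% and 8.55% of all starts. Among the genes separated on the deposited values the lowest changes were those of SLX4, the scaffold that binds MUS81 (−0.65, SE 0.20, adjusted p = 0.0592), RMI2, and FANCE, a core complex subunit (−0.53, SE 0.15, adjusted p = 0.0533). SLX4 was at −0.37 with summed signal (adjusted p = 0.175, limma), and at −0.50 without DMSO replicate 3 and −0.90 without DMSO replicate 2. The smallest were those of FANCL, the ubiquitin ligase of the core complex (−0.14, SE 0.12, adjusted p = 0.367), FANCF, an adaptor of that complex (−0.19, SE 0.11, adjusted p = 0.205), and BRCC3, a deubiquitinase of the BRCA1-A complex (−0.21, SE 0.12, adjusted p = 0.201). After median centring these last 3 were 0.13, 0.08 and 0.06, so their direction depended on the scale. Without APH replicate 3 the change of FANCF was −0.12 (adjusted p = 0.435, limma).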

How the data were processed

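ATAC-seq peak lists of 3 DMSO and 3 APH samples of RKO cells were analysed. The authors deposited, per sample, peak positions and a signal, the mean coverage over the peak. According to the study's methods and the submitters' processing notes, reads were aligned to hg38 with BWA 0.7.12, duplicates and reads that were not unique pairs were removed, alignments, lengthened to 200 bp, were piled up in bins of 32 nt, and peaks were called per sample with MACS2 2.1.0, with blacklisted peaks removed. No shift of read ends for the transposase is described in the sources used here. The deposited signal was not scaled to library size: in peaks under 1000 bp, at least 99.98% of values times the number of bins were whole within the rounding of the deposited digits. Depth is unknown, so no counting intervals are given.

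Gene bodies and starts came from RefSeq (GRCh38.p14). A start peak has its midpoint within 1 kb of any RefSeq start (for genes without a promoter entry, such as FANCI, the outer end, with the strand from GENCODE), several were averaged by length, and other peaks of a gene are body peaks. Start values of all genes with a start peak in all 6 samples, and regions merged from peaks overlapping by at least 1 bp, were tested on log2(value + 1) with limma 3.58.1 (R 4.3.3) with a trend and Benjamini-Hochberg adjustment over all features. Fold changes on this scale slightly understate those of low values. The script was tested on simulated data. Single values were compared by exact permutation over samples, two-sided. Alternatives were scaling, pseudocount, peak threshold, presence filter, start window, peak summary, region overlap, replicate block and leaving out each sample.

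The 9 genes and the 57 pathway genes were chosen with earlier results of these data known. Named genes are all 9, pathway genes past the adjusted p, and the 3 highest and 3 lowest changes among pathway genes whose groups do not overlap. Named body regions are the shared ones whose groups do not overlap, the strongest of each gene and those present in all 3 samples of one condition and none of the other, of which there were none. Other shared regions, the FANCA pair of regions seen in APH alone and the pathway genes separated relative to the sample were singled out after their values were seen. Values of a few other listed genes are not reported here.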

Additional observations from a re-analysis of the deposited data

How the results depend on the processing

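The count of starts called lower depended strongly on the setting. The deposited values gave 437 lower and 1 higher of 11368 starts. Median centring gave 0 and 0, quantile normalization 0 and 0, keeping features with a peak in at least 3 samples 1 lower, a start window of 500 bp 0 and 0, one of 2 kb 758 and 7, the highest start peak 0 and 0, summed signal 3094 and 11, and the outermost start 261 and 0. The last, and the sums relative to the sample, were chosen after seeing the data, as was leaving out samples for the total of body peaks. Leaving out 1 sample gave 0 to 2187 lower and 0 to 19 higher, the highest without APH replicate 3, where 2 of the 9 genes passed (range 0 to 2). Of the 9 genes, 1 (FANCM) passed with the 2 kb window and 4 with summed signal. Regions called lower numbered 1 with median centring and 0 to 3 on leaving out 1 sample, 3 of them without DMSO replicate 2, and 0 otherwise without the block.

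The replicate numbers did not meet the rule for pairing, a correlation over 0.1 in every pair: deviations of start values from the group means correlated at −0.10, 0.60 and 0.60 for numbers 1, 2 and 3, and DMSO replicate 1 correlated best with APH replicate 3, at 0.32. With the replicate block, 5976 starts (52.6%) were lower and 64 higher, 7 of the 9 genes passed, all except FANCD2 and FANCI, and 5583 regions were lower and 1021 higher.

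The number of the 9 genes separated downward was 6 to 8 under the alternatives run for it. Changes at their starts stayed negative in 148 of 153 alternative values. The exceptions were FANCD2 at 0.20 and FANCI at 0.055 with median centring, 0.21 and 0.050 with quantile normalization, and FANCD2 without DMSO replicate 2, where leaving out 1 sample gave −0.12 to 0.011. FANCL, FANCF and BRCC3 turned to 0.13, 0.083 and 0.058 with median centring and to 0.10, 0.079 and 0.034 with quantile normalization.

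Relative to the sample, 2 of the 9 genes were separated, 3 relative to the mean of all peaks (FANCM added), 1 with summed signal and 2 to 4 on leaving out 1 sample, 4 of them without DMSO replicate 3 or APH replicate 2. FANCI became −0.0096 relative to the mean of all peaks. With summed signal FANCI was −0.026, FANCM 0.033, BRCA2 0.065, PALB2 0.051, BLM 0.029 and MUS81 0.086. On leaving out 1 sample FANCI ran from −0.043 to 0.18, BRCA1 from −0.15 to 0.055, PALB2 from −0.15 to 0.021, and the log2 change of the BLM body region from −0.057 to 0.32. The difference in BLM body value, −6.94 as deposited, was 5.28 with the stricter peak threshold and with an equal number of peaks, 0.089 on the log2 scale relative to all peaks, and −15.1 to 3.87 on leaving out 1 sample. Genes with a separated body value numbered 1, 0 with an equal number of peaks, and 1 to 2 on leaving out 1 sample. With the stricter threshold the number was 0, but only FANCA and BLM could be compared. The highest FANCI body peak in DMSO replicate 1, at 26.3, lay below that threshold. Genes with separated body peak numbers were 0 to 1 on leaving out 1 sample, and the total differed by 1.33, or by 0 to 3.33. The cause of these changes was not tested, and unknown depth limits all of them.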
